A study of Mus musculus with 2 samples.

Results

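The phagocyte NADPH oxidase was examined through 7 genes that encode its membrane core, its cytosolic organisers, its RAC partners and the proton channel that works beside it. They were Cybb, Cyba, Ncf1, Ncf4, Rac1, Rac2 and Hvcn1, chosen by symbol, and all 7 were found among the 46095 genes or gene models of the count table. Gene expression had been measured by RNA sequencing of mouse acute myeloid leukaemia cells, taken from bone marrow of C57BL/6 mice aged 8 weeks and sorted for the surface proteins Mac1 and KIT. There was 1 library labelled P2X1 knockout (P2X1-KO) and 1 library labelled wild type (WT). P2X1 is an ATP-gated cation channel. The same labels also speak of a scrambled control and a knockdown, and the sources used here do not say how the leukaemia was made or whether cells of several mice were pooled. With 1 library per group no difference has a replicate check, no test was possible, and every interval is a 95% interval that covers counting error only.

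The oxidase moves electrons from NADPH inside the cell across the membrane to oxygen, which makes superoxide in the phagosome or outside the cell. The flavocytochrome in the membrane is a heterodimer of gp91phox (NOX2, encoded by Cybb) and p22phox (encoded by Cyba). It is silent until cytosolic subunits, among them p47phox (Ncf1) and p40phox (Ncf4), and a GTP-bound RAC protein join it. The enzyme is known from neutrophils, monocytes and macrophages, and its loss causes chronic granulomatous disease.

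The P2X1-KO library held 9447894 counts and the WT library 14658620. Levels are given as CPM, for which the TMM factors of edgeR bring both libraries to the same size. P2rx1 had 45 counts in the P2X1-KO-labelled library and 27 in the WT-labelled library, or 5.07 and 1.73 CPM, a fold of 2.93 (1.78 to 4.90). The targeted transcript was thus higher, not lower, in the library labelled knockout. The labels name both a knockout and a knockdown, and whether the channel protein was lost cannot be read from these counts. Each direction below is therefore a difference between 2 labelled libraries. The sort markers were present: Itgam, which encodes the Mac1 alpha chain, had 504.5 CPM in the P2X1-KO-labelled library and 306.6 CPM in the WT-labelled library, and Kit had 19.9 and 13.3 CPM in the same order. The 12 neutrophil markers summed to 14185 CPM in the P2X1-KO-labelled library and 3491 CPM in the WT-labelled library, and 11 of the 12 were at least 2-fold higher in the P2X1-KO-labelled library, while Ly6g, a defining surface marker of neutrophils, had 4.05 and 6.99 CPM in the same order. The 12 monocyte and macrophage markers summed to 5589 CPM in the P2X1-KO-labelled library and 413.6 CPM in the WT-labelled library, and all 12 were at least 2-fold higher. With TMM scaling the oxidase genes below were high in the same library as most of these neutrophil, monocyte and macrophage markers. The part of such cells in the result was not tested. Of the other lists, eosinophil, mast cell and basophil markers summed to 192.5 CPM in the P2X1-KO-labelled library and 46.8 CPM in the WT-labelled library, B and plasma cell markers to 52.1 and 17.5 CPM in the same order, and stroma and endothelium markers to 246.1 and 14.4 CPM, of which Col1a1 made up 149.4 and 0.962 CPM. Of these 10 stroma and endothelium markers, 4 averaged 1 CPM or more, and all 4 were at least 2-fold higher in the P2X1-KO-labelled library. Pecam1 made up 12.3 of the 14.4 CPM in the WT-labelled library. Cxcl12 went the other way, with 0 counts in the P2X1-KO-labelled library and 14 in the WT-labelled library, and Dcn, Lum and Kdr were at 0 in both. Prg2, an eosinophil granule gene, made up 129.4 of the 192.5 CPM in the P2X1-KO-labelled library, against 0.513 CPM in the WT-labelled library, while the basophil protease gene Mcpt8 went the other way, at 22.97 and 33.99 CPM in the same order, and Ear1, Ccr3 and Fcer1a were at 0 in both. Cd79b held 47.4 of the 52.1 CPM of the B cell list in the P2X1-KO-labelled library and 14.7 of the 17.5 CPM in the WT-labelled library. T and NK cell markers summed to 1.13 and 2.18 CPM in that order and erythroid and megakaryocyte markers to 6.76 and 3.72 CPM, with Cd4, Cd8a, Trac, Epor and Ppbp at 0 in both, as were the B cell markers Ms4a1, Pax5 and Ebf1.

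All 7 oxidase genes were higher in the P2X1-KO-labelled library with TMM scaling, a direction that with summed counts per kb turned for Rac2 (fold 0.869) and was lost for Rac1 (1.01, 0.965 to 1.053). 4 of them, Cybb, Ncf1, Ncf4 and Cyba, were at least 2-fold higher, each with its whole interval beyond 2-fold, and the other 3 were within 2-fold. These calls depend on the setting: Cyba was 1.87-fold with total counts and 1.33-fold with a correction for exon length and GC content, Ncf4 was 1.99-fold with that correction, and with summed counts per kb Cybb alone stayed at least 2-fold higher, with Ncf1 at 1.61, Ncf4 at 1.53 and Cyba at 1.38. Among the 10483 genes that averaged 5 CPM or more, 12.1% were at least 2-fold higher in the P2X1-KO-labelled library, 10.6% were at least 2-fold lower, 9.37% had the whole interval beyond 2-fold higher, and 45.8% were higher by any amount. The median log2 difference, P2X1-KO minus WT with a pseudocount of 0.5 CPM, was 1.08 over the oxidase genes and -0.08 over all those genes. Among the 4499 genes that averaged 50 CPM or more, a level that all 7 oxidase genes reach, 10.1% were at least 2-fold higher. Together the 7 genes took 0.545% of all counts in the P2X1-KO-labelled library (exact interval 0.541 to 0.550) and 0.331% in the WT-labelled library (0.328 to 0.334). In sorted bulk cells, more cells that carry a transcript and more of that transcript per cell cannot be told apart.

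**Figure D1:**
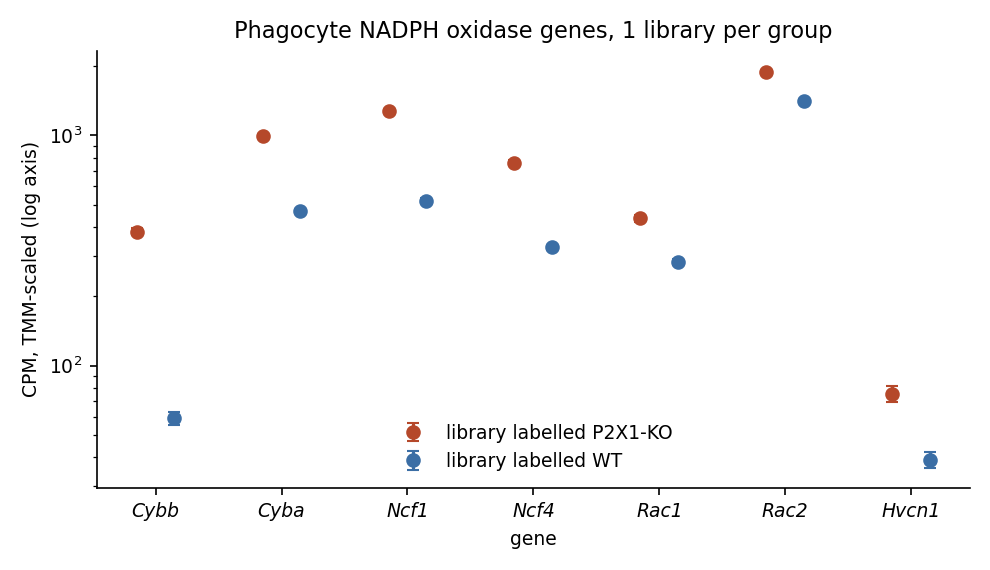
TMM-scaled CPM (log axis) of the 7 oxidase genes in the P2X1-KO-labelled library and the WT-labelled library, 1 library per group, with exact 95% Poisson intervals as bars, mostly smaller than the points. All points of the P2X1-KO-labelled library lie above their WT partners, which with summed counts per kb does not hold for Rac2 and leaves Rac1 at 1.01. The widest gap is that of Cybb, at 381.1 CPM in the P2X1-KO-labelled library and 59.0 CPM in the WT-labelled library, and the narrowest on this axis is that of Rac2, at 1879 and 1415 CPM in the same order.

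Cybb, the catalytic subunit that carries the haem groups and the flavin, differed more than any other of the 7. The gene spans positions 9435252 to 9487771 of chromosome X, minus strand (mm10, GENCODE M21). Cybb had 3385 counts in the P2X1-KO-labelled library (exact Poisson interval 3272 to 3501), or 381.1 CPM, against 920 counts in the WT-labelled library (862 to 981), or 59.0 CPM. The 2 libraries lay far apart relative to counting error, with Cybb high in the P2X1-KO-labelled library. The fold was 6.46 (6.00 to 6.95). Of the 10483 genes that averaged 5 CPM or more, 249 (2.38%) had a larger log2 difference in that direction. The genes with a curated symbol nearest to Cybb in both libraries were Gm2a, which encodes the activator of ganglioside breakdown, Ifi30, which encodes a lysosomal thiol reductase, and Capg, which encodes an actin-capping protein. Their distances from Cybb in log2(CPM + 0.5) over the 2 libraries were 0.26, 0.26 and 0.30, and no such gene lay within 0.25. Likeness over 2 libraries is weak, since any gene of similar level and fold would qualify.

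Cyba, the small subunit that stabilises gp91phox and anchors p47phox, differed less than its partner. The gene spans 122424776 to 122432930 of chromosome 8, minus strand. Cyba had 8795 counts in the P2X1-KO-labelled library (8612 to 8981), or 990.1 CPM, against 7310 counts in the WT-labelled library (7143 to 7480), or 468.8 CPM. It was high in the P2X1-KO-labelled library, though its fold sat close to the 2-fold line, at 2.11 (2.05 to 2.18). Cyba has the shortest exon union of the 7 genes, 1039 bp, and its fold was 1.33 after the length and GC correction, which subtracts the median log2 difference of genes of similar exon length and GC content.

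The promoters of 3 of the 7 genes, Cybb, Cyba and Ncf1, were found in the RefSeq promoter table (GRCm38.p6), and all 3 are shown. Each stretch holds 170 bases before the annotated start and the first 30 bases from it, 5′ to 3′ on the gene's strand. The RefSeq start used for Cybb, at position 9469324, is also that of the GENCODE M21 transcript Cybb-201, and lies 18447 bp inside the gene span given above, which is set by a transcript that starts farther upstream. Those of Cyba and Ncf1 lie 10 and 0 bp from the end of their GENCODE spans. Capitals mark GAGGAA, a core bound by the myeloid factor PU.1, the CCAAT box and the GC box GGGCGG, each searched on both strands.
Cybb, chrX:9469295-9469494, minus strand: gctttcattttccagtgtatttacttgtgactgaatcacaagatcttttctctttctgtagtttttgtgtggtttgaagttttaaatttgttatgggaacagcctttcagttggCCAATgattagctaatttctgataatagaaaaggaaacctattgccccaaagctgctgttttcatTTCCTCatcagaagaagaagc
Cyba, chr8:122432911-122433110, minus strand: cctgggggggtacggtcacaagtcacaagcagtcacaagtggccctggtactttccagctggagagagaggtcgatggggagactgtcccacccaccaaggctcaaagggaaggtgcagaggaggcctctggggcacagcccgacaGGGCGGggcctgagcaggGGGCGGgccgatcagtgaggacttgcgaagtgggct
Ncf1, chr5:134229596-134229795, minus strand: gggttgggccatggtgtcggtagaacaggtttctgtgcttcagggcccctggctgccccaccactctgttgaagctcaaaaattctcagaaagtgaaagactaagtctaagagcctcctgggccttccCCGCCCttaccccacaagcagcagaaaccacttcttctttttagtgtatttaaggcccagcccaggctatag
The Cybb stretch held a CCAAT box from -56 to -52 and the PU.1-type core on the opposite strand from 10 to 15, counting the first transcribed base as 1. The Cyba stretch held the GC box at -24 to -19 and again at -6 to -1, and the Ncf1 stretch held it on the opposite strand from -42 to -37. Of 32851 stretches of the same kind over all genes, 19.2% held GAGGAA, 29.0% CCAAT and 32.0% GGGCGG, so these matches are common and describe the letters only.

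The cytosolic organisers Ncf1 and Ncf4 had folds close to each other with TMM scaling. After the length and GC correction they lay farther apart, with Ncf1 at 2.63 and a ratio of 1.32 to Ncf4. Ncf1 encodes p47phox, which is phosphorylated on activation and docks the complex on p22phox, and spans 134220053 to 134229625 of chromosome 5, minus strand. Ncf1 had 11360 counts in the P2X1-KO-labelled library (11152 to 11571), or 1279 CPM, against 8115 counts in the WT-labelled library (7939 to 8294), or 520.5 CPM. Its fold was 2.46 (2.39 to 2.53), with the level high in the P2X1-KO-labelled library. Ncf4 encodes p40phox, which binds phosphatidylinositol 3-phosphate on the phagosome, and spans 78244801 to 78262580 of chromosome 15, plus strand. Ncf4 had 6746 counts in the P2X1-KO-labelled library (6586 to 6909), or 759.5 CPM, against 5081 counts in the WT-labelled library (4942 to 5223), or 325.9 CPM. The fold was 2.33 (2.25 to 2.42), again high in the P2X1-KO-labelled library, and 1.99 after the length and GC correction.

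Other NOX and DUOX genes were at or near 0 counts. Nox3, Nox4, Duox1 and Duoxa1 had 0 counts in both libraries, Nox1 and Noxa1 had 0 counts in the P2X1-KO-labelled library and 2 in the WT-labelled library, and Duox2 had 1 and 0 in the same order. A count of 0 allows up to 0.338 CPM in the P2X1-KO-labelled library and 0.192 CPM in the WT-labelled library, taking 3 counts as the limit. Noxo1, the organiser known from NOX1 complexes, had 6.64 CPM in the P2X1-KO-labelled library and 6.09 CPM in the WT-labelled library, and its exons overlap those of Tbl3 on the opposite strand.

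The RAC genes had the smallest folds of the 7 with TMM scaling, whereas after the length and GC correction Cyba, at 1.33, lay below Rac1, at 1.71, and beside Rac2, at 1.32. Rac2, which encodes the RAC protein of blood cells and of the neutrophil oxidase, spans 78559167 to 78572783 of chromosome 15, minus strand. Rac2 had 16694 counts in the P2X1-KO-labelled library (16442 to 16949), or 1879 CPM, against 22065 counts in the WT-labelled library (21775 to 22358), or 1415 CPM. The fold of 1.33 (1.30 to 1.36) was the lowest of the set, and Rac2 was nevertheless the member with the most counts in both libraries. Rac1, which encodes the widely expressed RAC protein that serves the oxidase of monocytes and macrophages, spans 143503634 to 143528036 of chromosome 5, minus strand. Rac1 had 3866 counts in the P2X1-KO-labelled library (3745 to 3990), or 435.2 CPM, against 4407 counts in the WT-labelled library (4278 to 4539), or 282.7 CPM, a fold of 1.54 (1.47 to 1.61). Both RAC genes were thus somewhat high in the P2X1-KO-labelled library with TMM scaling, but this depended on scaling as described below. Exons of Rac1 overlap those of Daglb on the opposite strand over 2309 bp. Daglb had 68.7 CPM in the P2X1-KO-labelled library and 57.9 CPM in the WT-labelled library, and the sources used here do not state whether counting used the strand.

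The share of Rac2 in the summed Rac1 and Rac2 counts per kb needs no scaling between libraries. It was 86.2% in the P2X1-KO-labelled library (exact binomial interval 85.8 to 86.6) and 87.9% in the WT-labelled library (87.5 to 88.2). Rac2 was therefore the main RAC transcript of both libraries by these counts, with a share slightly lower in the P2X1-KO-labelled library. The exact share also depends on how reads in the overlap of Rac1 with Daglb were counted, which is not known.

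Hvcn1, which encodes the voltage-gated proton channel that offsets the charge the oxidase moves, was the least abundant of the 7 by CPM in both libraries. The gene spans 122206804 to 122242297 of chromosome 5, plus strand. Hvcn1 had 668 counts in the P2X1-KO-labelled library (618 to 721), or 75.2 CPM, against 607 counts in the WT-labelled library (560 to 657), or 38.9 CPM. It was high in the P2X1-KO-labelled library, and its fold of 1.93 had an interval, 1.73 to 2.16, that spans the 2-fold line. Exons of Hvcn1 overlap those of Tctn1 on the opposite strand over 1574 bp, and Tctn1 went the other way, at 28.3 CPM in the P2X1-KO-labelled library and 48.8 CPM in the WT-labelled library. Ncf1 likewise overlaps Gtf2ird2 over 408 bp, and Gtf2ird2 had 17.1 CPM in the P2X1-KO-labelled library and 23.3 CPM in the WT-labelled library. No other gene of GENCODE M21 matched a member's longest transcript on the same strand at 95% identity over at least 150 bp. Tctn1, Gtf2ird2 and Daglb matched on the opposite strand, where they overlap, and without a known strand setting reads shared with them cannot be told apart.

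The folds differed among the 7 genes by more than counting error. Of the 21 pairs of oxidase genes, 20 had a ratio of folds whose interval (normal approximation on the log scale) excluded 1, and the exception was Cyba with Hvcn1, at 1.09 (0.975 to 1.23). The fold of Cybb was 3.06 times that of its partner Cyba (2.83 to 3.31), 2.63 times that of Ncf1 (2.43 to 2.84) and 4.86 times that of Rac2 (4.51 to 5.25). The fold of Ncf1 was 1.05 times that of Ncf4 (1.01 to 1.10). A scaling that multiplies every fold by 1 factor leaves these ratios as they are, but the length and GC correction moves them. With it Cybb over Cyba was 6.23, and the order turned in 3 of the 21 pairs, with Cyba over Rac1 at 0.776, Cyba over Hvcn1 at 0.642 and Ncf4 over Hvcn1 at 0.962.

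Within each library, levels between genes were compared per kb of exon, as TPM, the transcript share scaled for length. In the P2X1-KO-labelled library the order was Cyba with 2109 TPM, Rac2 with 1340, Ncf4 with 832, Ncf1 with 772, Rac1 with 214, Cybb with 145 and Hvcn1 with 46.7 TPM, and every pair of neighbours differed beyond counting error. In the WT-labelled library the order was Rac2 with 1542 TPM, Cyba with 1525, Ncf4 with 545, Ncf1 with 480, Rac1 with 213, Hvcn1 with 36.9 and Cybb with 34.3 TPM. There, with the exon union as length, Rac2 and Cyba were not distinguishable (ratio 1.01, 0.984 to 1.04), nor were Hvcn1 and Cybb (1.08, 0.971 to 1.19). With that length Cybb was thus not distinguishable from Hvcn1 in the WT-labelled library, and stood 3.11 times above Hvcn1 (2.86 to 3.38) in the P2X1-KO-labelled library. Of the exon union of Hvcn1, 1574 of 3563 bp overlap Tctn1, and of that of Rac1, 2309 of 4496 bp overlap Daglb. Ncf1 overlaps Gtf2ird2 over 408 of 3663 bp. How reads in these stretches were counted is not known, so levels per kb of these genes, and their places in the order, are uncertain beyond counting error. Per kb, Cybb reached 0.0689 of the level of Cyba in the P2X1-KO-labelled library and 0.0225 in the WT-labelled library, whereas Ncf1 reached 0.366 and 0.315 and Rac2 0.636 and 1.01 in the same order. With the length of the longest transcript in place of the exon union, Rac2 stood at 0.465 of Cyba in the P2X1-KO-labelled library and 0.739 in the WT-labelled library. In the WT-labelled library Hvcn1 then stood at 0.0220 of Cyba and Cybb at 0.0197. The likeness of Rac2 to Cyba in that library thus depends on the length used. No interval for Hvcn1 against Cybb was computed with the longest transcript.

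**Figure D2:**
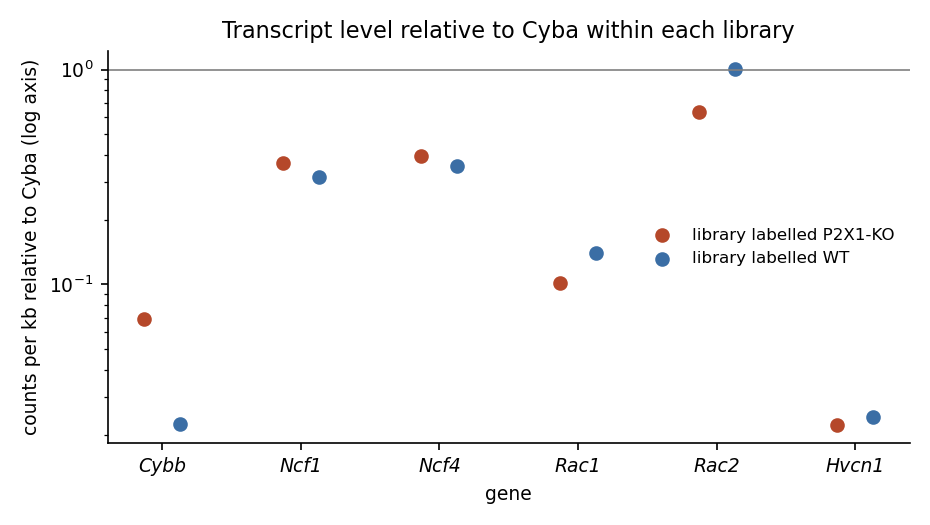
Counts per kb of exon of 6 oxidase genes relative to Cyba (log axis) in the P2X1-KO-labelled library and the WT-labelled library, 1 library per group, with a line at 1. The ratio of Cybb was 0.0689 in the P2X1-KO-labelled library and 0.0225 in the WT-labelled library, while that of Rac2 was 0.636 and 1.01 in the same order.

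The direction of 5 of the 7 genes was the same under every setting run, and those of Rac1 and Rac2 depended on scaling. Scaling by total counts lowers every fold to 0.884 of its TMM value, and scaling by summed counts per kb, added after the data were seen, lowers every fold to 0.655, a shift of -0.61 in log2 for all genes alike. With the latter Rac2 was lower in the P2X1-KO-labelled library, at a fold of 0.869 (0.852 to 0.887), the interval of Rac1 held 1, at 1.01 (0.965 to 1.053), and Cybb was 4.23-fold higher, the 1 member still at least 2-fold higher. Over all settings the fold ran between 4.23 and 8.28 for Cybb, 1.61 and 2.63 for Ncf1, 1.53 and 2.47 for Ncf4, 1.33 and 2.24 for Cyba, 1.26 and 2.07 for Hvcn1, 1.01 and 1.71 for Rac1, and 0.869 and 1.41 for Rac2.

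**Figure D3:**
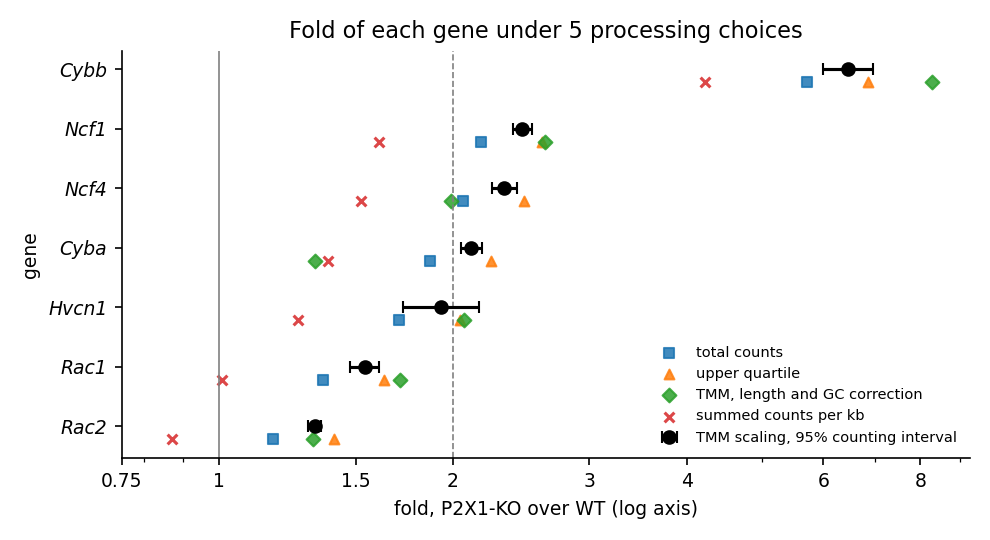
Fold of each oxidase gene, P2X1-KO over WT (log axis), with TMM scaling and its exact 95% counting interval, and under 4 other choices plotted just below it, with lines at no change and at 2-fold. Cybb stayed above 4-fold throughout, at 4.23 to 8.28, and with summed counts per kb Rac2 crossed 1, at 0.869, and Rac1 lay at 1.01.

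**Figure D4:**
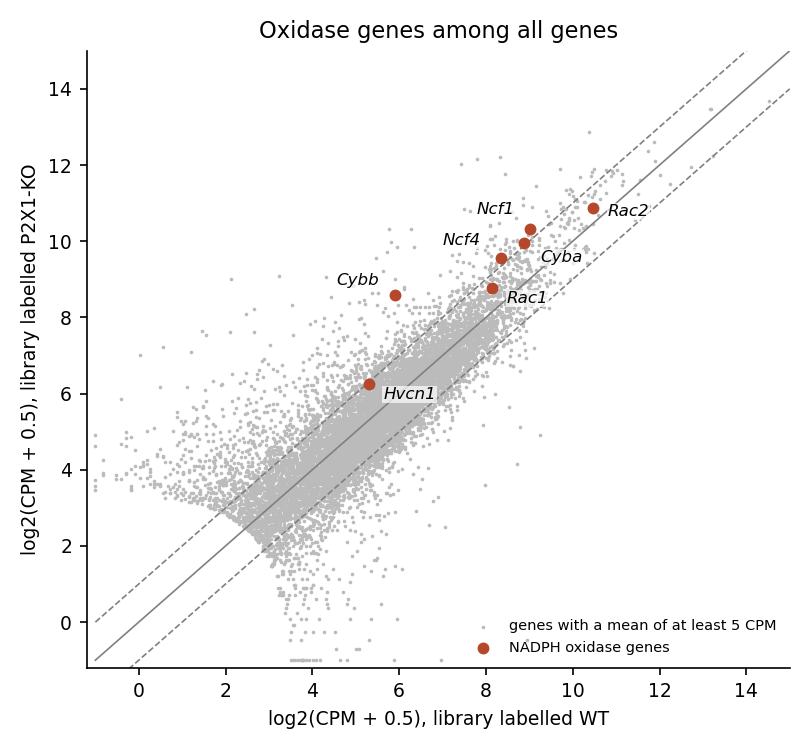
log2(CPM + 0.5) of each gene averaging 5 CPM or more, in the P2X1-KO-labelled library (vertical axis) and in the WT-labelled library (horizontal axis), with the 7 oxidase genes named, a solid line at no change and dashed lines at 2-fold. Cybb lies farthest above the line of no change among the 7, with a log2 difference of 2.68, and Rac2 nearest to it, at 0.41 with TMM and -0.20 with summed counts per kb.

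Genes that act around the oxidase mostly lay within 2-fold with TMM scaling, with list medians from -0.05 to 0.22 in log2. Of those beyond 2-fold, 10 were higher and 2 lower in the P2X1-KO-labelled library. Genes are named from each direction by rule, so the names do not show how many rose or fell. For these lists, members averaging 1 CPM or more were counted. Over all 13382 genes at that level, the share at least 2-fold higher in the P2X1-KO-labelled library was 15.5%, the share at least 2-fold lower was 14.0%, and the log2 difference had a median of -0.06. Of 17 RAC and RAP regulators, 2 were at least 2-fold higher, 0 lower and 15 within 2-fold (median log2 difference 0.21). Tiam1, a RAC exchange factor, was 6.21-fold higher (5.26 to 7.37), at 71.7 CPM in the P2X1-KO-labelled library and 11.5 CPM in the WT-labelled library. Rhog, a RAC-related GTPase, was 2.23-fold higher (2.12 to 2.34), while Vav2 was 1.45-fold (1.15 to 1.83) and Dock2 1.12-fold lower (1.07 to 1.17). Vav2 and Dock2 encode RAC exchange factors, and exons of Dock2 overlap an unnamed gene on the opposite strand.

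Kinases and lipid enzymes that activate the complex were also mostly level. Of 17 such genes, 1 was at least 2-fold higher, 1 at least 2-fold lower and 15 within 2-fold (median -0.05). Pik3r5, the regulatory partner of the phosphoinositide 3-kinase gamma that G protein-coupled receptors switch on, was 3.11-fold higher (2.71 to 3.57), at 65.9 CPM in the P2X1-KO-labelled library and 21.2 CPM in the WT-labelled library. Prkcz, the gene of an atypical protein kinase C able to phosphorylate p47phox, was 4.82-fold lower (3.91 to 5.99), at 11.3 CPM in the P2X1-KO-labelled library and 54.3 CPM in the WT-labelled library. Plcg2 was 1.52-fold higher (1.46 to 1.60) and Pak2, a kinase that RAC activates, 1.53-fold lower (1.42 to 1.65).

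Of 15 transcription factors known, largely from human cells, to act on the CYBB promoter, 4 were at least 2-fold higher, 1 at least 2-fold lower and 10 within 2-fold (median 0.03). Irf8, an interferon regulatory factor of the monocyte lineage, had 170.4 CPM in the P2X1-KO-labelled library and 25.9 CPM in the WT-labelled library. Its fold was 6.58 (5.89 to 7.36). Cebpb, Cebpe and Irf2 were the others at least 2-fold higher, at 3.05-fold (2.88 to 3.22), 2.72-fold (2.56 to 2.88) and 2.40-fold (2.12 to 2.70). Of these, Cebpe and Irf2 were named after their values were seen. So was Spi1, the gene of PU.1, with 1034 CPM in the P2X1-KO-labelled library and 534.8 CPM in the WT-labelled library, a fold of 1.93 (1.88 to 1.99). Whether any of these factors acts on Cybb in these cells was not tested. Elf1, an ETS factor, was 2.04-fold lower (1.90 to 2.20) and Meis1, a homeobox gene, 1.62-fold lower (1.499 to 1.76). Both overlap other annotated genes on the opposite strand, as does Cebpb, and Meis1 also overlaps the gene model Gm37818 on its own strand.

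Enzymes that use or remove the products of the oxidase differed in both directions. Of 9 measured among 11, 2 were at least 2-fold higher, 0 lower and 7 within 2-fold (median 0.15). Prdx5, a peroxiredoxin gene lying opposite to Trmt112, stood 2.98-fold higher (2.89 to 3.08), and Gpx1, a glutathione peroxidase gene, 2.69-fold higher (2.63 to 2.74). Mpo encodes myeloperoxidase, which turns hydrogen peroxide into hypochlorous acid, and it was 1.88-fold lower (1.77 to 1.995), opposite in direction to the oxidase genes. It overlaps a predicted gene on the other strand. Mpo had 158.2 CPM in the P2X1-KO-labelled library and 297.1 CPM in the WT-labelled library. Sod2, the mitochondrial superoxide dismutase gene, was 1.39-fold lower (1.26 to 1.53).

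**Figure D5:**
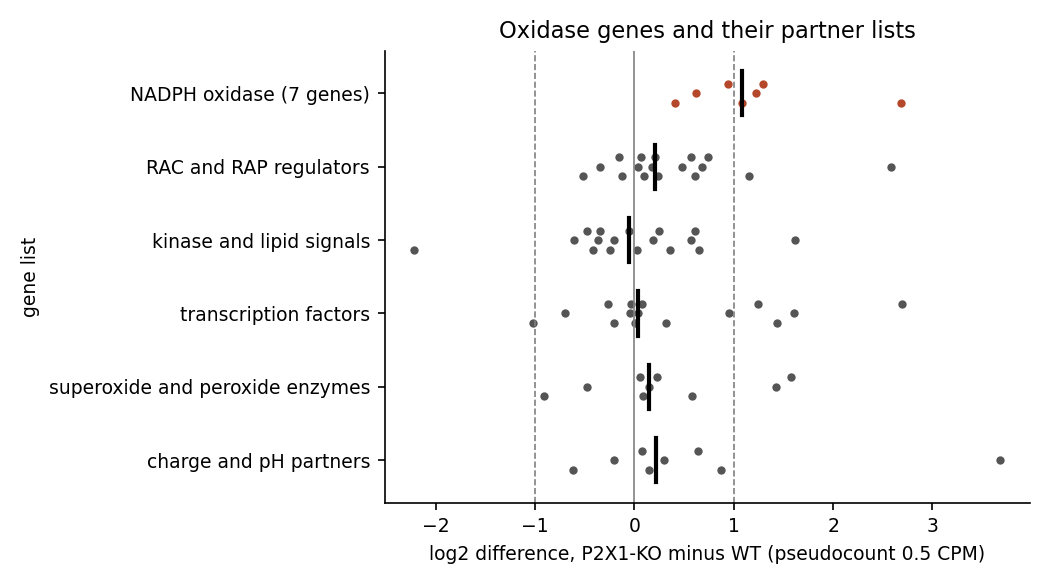
log2 difference, P2X1-KO minus WT with a pseudocount of 0.5 CPM, of the 7 oxidase genes and of the members of 5 partner lists with a mean of at least 1 CPM, with bars at each median and dashed lines at 2-fold. The oxidase genes have a median of 1.08, and the partner lists have medians from -0.05 for kinase and lipid signals to 0.22 for the charge and pH partners.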

How the data were processed

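The file the authors deposited holds raw counts for each gene symbol, with a column for either library. The submitters' processing notes name HISAT2 2.0.4 and mm10, and the sources used here do not name the counter, its annotation or its strand setting. Scaling by TMM (trimmed mean of M values, edgeR 4.0.16, R 4.3.3) set the effective library sizes at 8882591 for P2X1-KO and 15591519 for WT. Folds are ratios of CPM with exact (Clopper-Pearson) 95% intervals given the sum of both counts. Log2 differences use a pseudocount of 0.5 CPM. Calls were made at 2-fold, and the fold calculation was tested on simulated data. The alternatives were total counts, total counts without the 20 most abundant genes, upper-quartile scaling, DESeq2 1.42.0 size factors, thinned WT counts, other pseudocounts and filters, and a correction over 20 bins each of exon length and GC content. Exon lengths and coordinates came from GENCODE M21 and covered 95.4% of the genes that averaged 5 CPM or more. TPM were computed here from 33954 matched genes. Copies were sought with BLAST+ 2.17.0.

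The members, gene lists, promoter motifs and alternatives were chosen with earlier results of these data known. Named partner genes are up to 2 in each direction per list, at a mean of at least 1 CPM, ranked by the interval bound nearest to no change. Cybc1, listed among the other subunits, had no match by symbol and was not analysed here. Some other listed genes are not reported here.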

Additional observations from a re-analysis of the deposited data

How the results depend on the processing

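The count of oxidase genes at least 2-fold higher in the P2X1-KO-labelled library, 4 in the report, was 3 to 5 under the alternatives listed in the methods and 1 with summed counts per kb, and 0 were at least 2-fold lower in each. Their median log2 difference, 1.08 in the report, was 0.90 with total counts, 0.88 with total counts without the 20 most abundant genes, 1.16 with upper-quartile scaling, 0.99 with the length and GC correction and 0.47 with summed counts per kb. With that last scaling Rac2 reversed to -0.20, and 609 of all genes were at least 2-fold higher and 3649 lower, against 1271 and 1110 with TMM. The lower count was 1606 with total counts, beside 1015 higher, and 1731 with total counts without the 20 most abundant genes, beside 1025 higher. With upper-quartile scaling 1435 were higher and 921 lower. With the length and GC correction, for which 10005 of the 10483 genes have the needed values, 1157 were higher and 792 lower. At a mean of at least 1 CPM, 2074 of 13382 genes were higher and 1870 lower, and of the 20541 genes with a count 3604 and 6484. These gene sets differ in size, so their counts are not to be compared directly. Of the partner genes, 10 were at least 2-fold higher and 2 lower in the report. They come from lists with 17, 17, 15, 9, 8 and 1 members averaging 1 CPM or more. Among all 13382 genes at that level, 15.5% passed the 2-fold line upward and 14.0% downward. The 1271 and 1110 genes above are at a mean of 5 CPM or more, an unlike filter. With summed counts per kb 4 partner genes were higher and 11 lower, and with no filter on level 13 were higher and 5 lower. With upper-quartile scaling, thinned WT counts or the length and GC correction 1 partner gene was lower. The cause of these moves was not tested, apart from the scalings, which multiply every fold by 1 factor.

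The share of Rac2 was 85.5% in the P2X1-KO-labelled library and 87.3% in the WT-labelled library with longest transcript lengths, and 81.2% and 83.4% with no length.

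Some partner list medians changed sign. That of the transcription factors was -0.14 with total counts, -0.16 without the 20 most abundant genes and -0.58 with summed counts per kb, and that of the superoxide and peroxide enzymes -0.029, -0.046 and -0.46 under the same settings. The kinase and lipid median was 0.017 with upper-quartile scaling and 0.13 with the length and GC correction. With summed counts per kb the medians were -0.40 for the RAC and RAP regulators and -0.39 for the charge and pH partners. Summed counts per kb shift every fold by -0.61 in log2, total counts by -0.18, and total counts without the 20 most abundant genes by -0.195. The median over all genes moves along, so a change of sign under these scalings is not particular to the lists.

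No paired analysis was possible because each group has 1 library. The smaller depth of the P2X1-KO-labelled library limits genes with few counts, and none of the 7 oxidase genes had fewer than 607.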

Other observations

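Charge and pH partners of the phagosome, which were not described above, mostly lay within 2-fold. Of 8 genes measured, 1 was at least 2-fold higher in the P2X1-KO-labelled library, 0 were at least 2-fold lower and 7 lay within 2-fold, the median log2 difference being 0.22. Most of the 13382 genes averaging 1 CPM or more lay within 2-fold too. Of them, 15.5% passed the 2-fold line upward and 14.0% downward, with a median of -0.06. Kcnn4, which encodes a calcium-activated potassium channel, had 426 counts in the P2X1-KO-labelled library and 51 in the WT-labelled library, and was 14.7-fold higher (10.9 to 20.01). Atp6v1b2, a subunit gene of the vacuolar proton pump, was 1.83-fold higher (1.71 to 1.96). Clcn3, a gene of a vesicular chloride and proton exchanger, was 1.55-fold lower (1.31 to 1.85), and Tcirg1, another subunit gene of the pump, 1.16-fold lower (1.12 to 1.20).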
